A study of Mus musculus with 8 samples.

Results

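The genes described here are 41 mouse genes of the interferon response and of the p200 family, listed by what the genes are and not by a threshold on these arrays. The list was made with earlier results of these data known, so shares of its members called are a description. It leaves out 7 measured p200 genes, which are described below. They cover the factors that carry the interferon signal, sensors of foreign nucleic acid, antiviral effectors, interferon-inducible GTPases, antigen processing genes and the p200 genes. Of the 41, 35 had a probe set of their own on the array, among 19938 genes measured. Isg15, Gbp2, Ifi204, Ifi47 and Igtp were covered only by probe sets shared with another gene, and Ifi44 had none listed, so these 6 genes have no value. All 35 entered every test, and no filter on low values was applied.

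The cells were c-Kit+ bone marrow cells from mice with floxed Runx1 and Cbfb, which carried the leukaemia fusion gene MLL-AF9 and CreERT2, a recombinase that acts once 4-hydroxytamoxifen (4OHT) is present, linked to puromycin resistance. Cultures of 2 clones were grown in cytokine-rich methylcellulose (M3434). The control cultures received ethanol and are labelled Runx1/Cbfb-intact; the other cultures received 4OHT at 1 µM and are labelled as knockouts of both genes. Every culture carried MLL-AF9, CreERT2 and the floxed alleles, and each was collected after 24 h. The 8 arrays form 4 sets, each pairing the control with the 4OHT culture that shares its clone and its replicate number, with 2 sets per clone. No culture without floxed alleles received 4OHT, so an effect of 4OHT or of Cre cannot be told apart from that of the deletion. With 2 clones, differences between clones describe these clones, and sets of the same clone share its origin. A bulk array also cannot tell fewer cells with a transcript from less of it per cell.

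Values are deposited log2 expression levels, and a difference of 1 on that scale is a doubling. A level depends on the probes as well as on the transcript, so levels are compared between arrays for the same gene and not between genes. The Runx1 signal went against the labels. It read 10.05 to 10.71 in control arrays and 10.58 to 11.19 in arrays labelled deleted, 0.52 ± 0.04 higher (moderated SE, n = 4 sets, limma adjusted p = 1.64e-05). Cbfb differed by -0.18 ± 0.05 (adjusted p = 0.128). Probe positions were not analysed here, and a probe set outside the deleted exons checks nothing, so the 4OHT cultures are called labelled deleted throughout. The mean level per array, given for each marker list on its own probes and not for comparison between lists, ran from 10.75 to 11.17 for 13 myeloid progenitor markers, 6.13 to 6.44 for macrophages, 5.35 to 5.86 for dendritic cells and 5.89 to 6.21 for plasmacytoid dendritic cells. It ran from 4.93 to 5.21 for T and NK cells, 5.13 to 6.23 for B cells, 6.20 to 6.44 for stroma and endothelium and 6.04 to 6.18 for erythroid cells. Among the 13 progenitor markers, 5 were called lower in labelled deleted arrays (Cebpa, Kit, Prtn3, Itgam and Spi1) and 8 were not called. Of all genes, 0.953% were called between the treatments. Cd34 differed between the clones by 5.48 in control arrays. In that comparison, which called 3.97% of all genes, 1 progenitor marker was higher in clone 2 and 3 were lower. Of 10 macrophage markers, 2 were higher and 1 was lower. Also called were 1 of 9 dendritic and 1 of 4 B cell markers, both higher, and 1 of 7 stroma and endothelium markers, which was lower. No marker of macrophages, dendritic cells, plasmacytoid dendritic cells, T and NK cells, B cells, stroma or erythroid cells was called between the treatments. Of these markers, 3 had an unadjusted p under 0.05, against 6.47% of all genes. The part of any cell type in the results was not tested.

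Type I interferons bind a cell-surface receptor whose kinases Jak1 and Tyk2 phosphorylate transcription factors, Stat2 among them. With Irf9 these form a complex that binds the interferon-stimulated response element (ISRE) in the promoters of its target genes. Interferon gamma acts through a different sequence, the gamma-activated site (GAS). The p200 proteins pair a HIN domain that binds DNA with, in many members, a pyrin domain. Aim2 is the member known for sensing DNA in the cytosol and assembling an inflammasome.

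Only Ifi209, a p200 gene, passed the test between labelled deleted and control cultures, and it was higher. The other 34 measured members did not pass. Thus 1 of 35 members (2.86%) was called at a limma adjusted p under 0.05, against 0.953% of all genes. At an unadjusted p under 0.05 there were 8 members (22.86%), against 6.47% of all genes: Ifi209, Gbp3, Zbp1, Dhx58, Irf9 and Parp14 with values above 0, and Cmpk2 and Ifih1 with values below 0. The difference had the same sign in all 4 sets for 9 members (25.71%), against 13.1% of all genes. Of these 9, Irf1, Irf9, Dhx58, Zbp1, Oas2, Parp14, Gbp3 and Ifi209 were above 0 in each set and Cmpk2 was below 0 in each. The median log2 difference over the 35 members was 0.03, against 0.00 over all genes, and 23 of 35 members lay above 0. Ifi209 lay far outside the range of the other members.

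**Figure D1:**
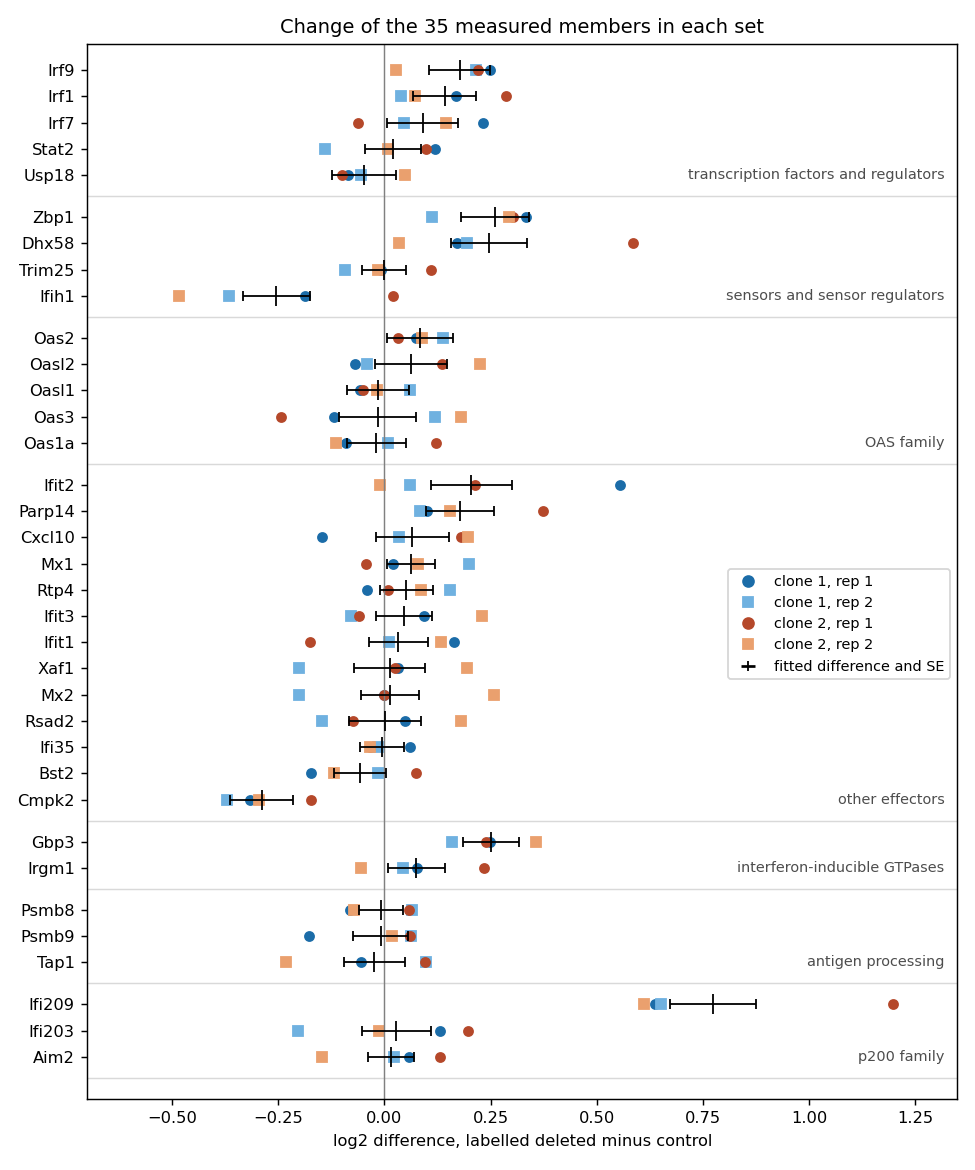
Log2 difference between the labelled deleted and the control array of each set (points, coloured by clone and replicate) for the 35 measured members, ordered by role. The black tick and bar give the fitted difference and its moderated SE over 4 sets. Ifi209 stands at 0.77, and the other members lie between -0.29 and 0.26.

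Ifi209 read 6.55 and 6.37 in the control arrays of clone 1 and 6.75 and 6.79 in those of clone 2. In labelled deleted arrays it read 7.19 and 7.02 in clone 1 and 7.94 and 7.40 in clone 2. All 4 labelled deleted arrays lay above all 4 control arrays. Ifi209 was the only member whose groups did not overlap, as was the case for 1.17% of all genes. The means were 6.61 ± 0.19 and 7.39 ± 0.40 (SD, n = 4), and the set differences were 0.64, 0.65, 1.20 and 0.61. The fitted difference was 0.77 ± 0.10 (moderated SE, n = 4 sets), a 1.71-fold higher level, with a limma adjusted p of 0.00219. The set of clone 2, replicate 1 gave the largest difference, and without it the value was 0.63 (adjusted p = 0.00564, within a range of 3.24e-05 to 1 over the alternatives). The call was lost with group alone and no block (adjusted p = 1), where the variance prior ignored expression level (adjusted p = 0.0677) and where all 35556 probe sets were tested (adjusted p = 0.218).

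Within the clones, Ifi209 differed by 0.64 ± 0.15 in clone 1 (adjusted p = 0.14) and by 0.90 ± 0.15 in clone 2 (adjusted p = 0.00608; n = 2 sets each, limma). The difference between these changes was 0.26 ± 0.21 and did not pass (adjusted p = 1). No member was called in clone 1, where 0.181% of all genes were called, and 4 members had an unadjusted p under 0.05 there, against 3.64% of all genes. In clone 2, Ifi209 was the only member called, against 0.682% of all genes, and 4 members had an unadjusted p under 0.05, against 5.17%. In clone 2, 0 members were called without the block, with a constant prior variance or with all probe sets tested. No member's change differed between the clones by the limma interaction test, at the adjusted threshold (0.0100% of all genes) or at an unadjusted p under 0.05 (1.97% of all genes).

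The p200 genes lie next to each other in the RefSeq gene order, which runs Aim2, Ifi206, Ifi214, Ifi213, Ifi209, Ifi208, Ifi207, Ifi204, Mndal, Ifi211, Ifi203, Ifi202b and Ifi205. Both other measured p200 members showed values near 0. Aim2 read 9.54, 9.19, 9.50 and 9.47 in the control arrays and 9.60, 9.22, 9.63 and 9.32 in the labelled deleted arrays of the same sets, a difference of 0.02 ± 0.05. Ifi203 read 4.81, 5.02, 5.35 and 5.32 in control arrays and 4.94, 4.82, 5.54 and 5.30 in labelled deleted arrays, a difference of 0.03 ± 0.08. The groups overlapped for both genes. In labelled deleted arrays Ifi203 was higher in clone 2 than in clone 1 by 0.54 ± 0.12 (limma adjusted p = 0.022), and in control arrays the difference was 0.41 ± 0.12 (adjusted p = 0.097).

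Among 7 p200 genes beyond the members, none was called by limma and 1, Ifi208, had an unadjusted p under 0.05, against 6.47% of all genes. Ifi208, the next gene after Ifi209, read 3.90, 3.84, 3.94 and 3.88 in control arrays and 3.97, 4.30, 4.06 and 4.26 in labelled deleted arrays. Its 4 labelled deleted values all lay above its control values, as groups did not overlap for 1.17% of all genes, and the difference was 0.26 ± 0.07 (adjusted p = 0.137). All 7 of these p200 genes lay below the 25th percentile of level, where a low signal cannot be told from background here. On the other side, Ifi213 differed by 0.15 ± 0.08. Ifi206, Ifi207, Ifi214, Ifi202b and Ifi205 gave -0.10, 0.00, 0.07, -0.06 and -0.05. Genes of this cluster are close copies of each other, and Ifi204 shares its probe set with Ifi211, so a signal can include transcripts of a neighbour. Probe sequences were not analysed here.

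**Figure D2:**
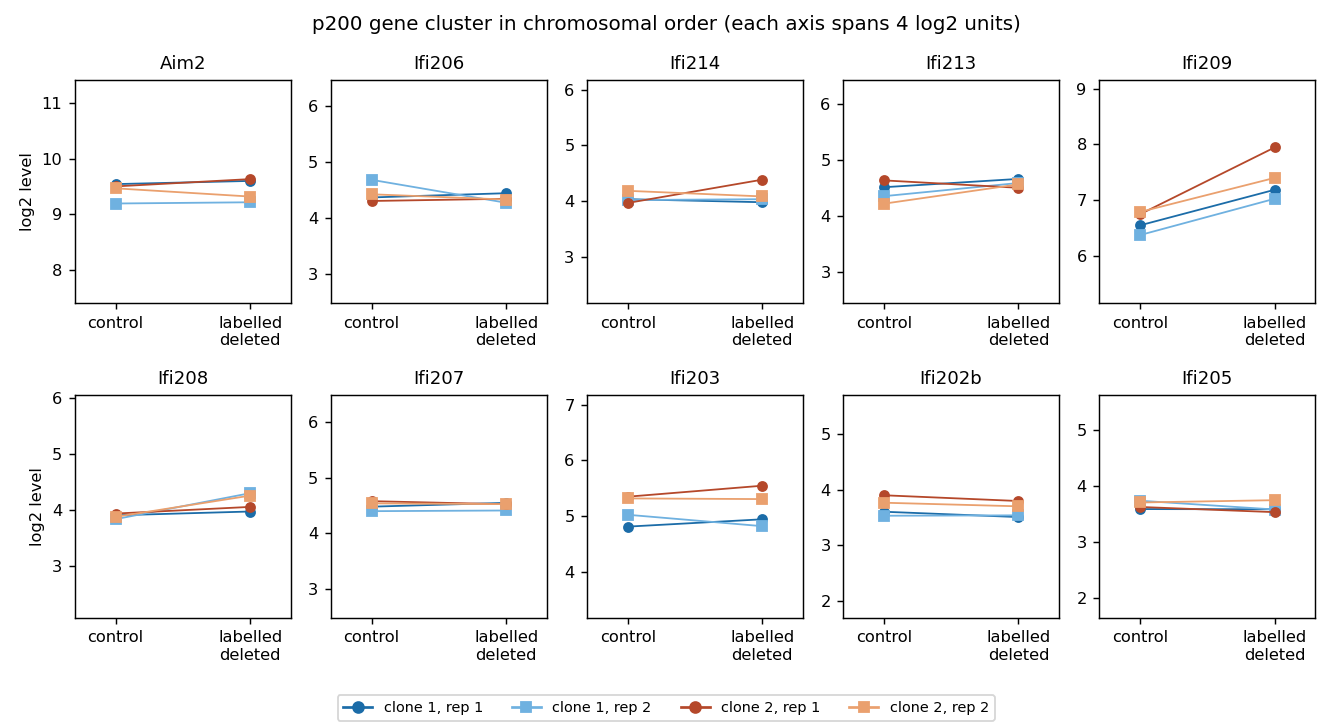
Log2 levels of measured p200 genes on the control and labelled deleted arrays, with a line joining the arrays of each set and colours for the clones. The Ifi209 lines rise in all 4 sets, from 6.37 to 6.79 up to 7.02 to 7.94, and those of Aim2 and Ifi203 run nearly level.

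Promoter sequences from RefSeq (GRCm38.p6) were matched to 27 of the 35 measured members and searched over the 250 bases before each start, on both strands, for 3 kinds of motif. The ISRE core was taken as GAAA, then any 2 bases, then GAAA; the GAS core as TTCNNNGAA; and the binding motif of the Runx proteins as TGTGGT or TGCGGT. An ISRE core was found in 11 of 27 members (40.74%), against 3.46% of all genes with a promoter and 2.98% of all promoters. These were Bst2, Cxcl10, Gbp3, Ifi203, Ifit1, Ifit3, Irgm1, Oas1a, Oas3, Rsad2 and Stat2. A GAS core was found in Bst2, Ifit2, Irf1, Oas1a and Psmb8 (18.52%, against 8.13% of all genes and 7.02% of promoters). A Runx motif was found in Cmpk2, Ifi35, Oasl2 and Stat2 (14.81%, against 20.93% of all genes and 18.59% of promoters). A match is a run of letters and not a known site, and overlapping matches of a motif were counted.

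The 120 bases before the start are shown for the called gene, Ifi209, and for Gbp3, Cmpk2, Ifih1 and Psmb8, called between the clones in control arrays. Oas2, also called there, had no matched promoter, and Ifi203 and Psmb9, called only in labelled deleted arrays, are not shown. Ifit1 and Oas1a were added as a pair of interferon targets with ISRE cores. Capitals mark any match to the 3 motifs, and each sequence reads from 5′ to 3′ on the strand of its gene. For Gbp3 the first of 2 starts is shown.
Ifi209, chr1:173630739-173630858, plus strand: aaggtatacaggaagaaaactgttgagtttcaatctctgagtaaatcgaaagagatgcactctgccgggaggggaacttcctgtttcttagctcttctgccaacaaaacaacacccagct
Gbp3, chr3:142559924-142560043, plus strand: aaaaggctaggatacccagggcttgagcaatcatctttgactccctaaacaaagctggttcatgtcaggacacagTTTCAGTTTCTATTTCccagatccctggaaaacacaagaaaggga
Cmpk2, chr12:26469095-26469214, plus strand: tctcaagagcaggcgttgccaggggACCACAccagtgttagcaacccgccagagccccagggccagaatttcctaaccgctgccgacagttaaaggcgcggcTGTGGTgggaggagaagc
Ifih1, chr2:62646256-62646375, minus strand: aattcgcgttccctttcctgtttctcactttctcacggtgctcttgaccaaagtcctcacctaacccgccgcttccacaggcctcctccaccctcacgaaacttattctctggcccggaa
Psmb8, chr17:34198075-34198194, plus strand: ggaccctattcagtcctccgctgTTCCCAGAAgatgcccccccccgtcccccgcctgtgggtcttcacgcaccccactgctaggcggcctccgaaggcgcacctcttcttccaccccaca
Ifit1, chr19:34640769-34640888, plus strand: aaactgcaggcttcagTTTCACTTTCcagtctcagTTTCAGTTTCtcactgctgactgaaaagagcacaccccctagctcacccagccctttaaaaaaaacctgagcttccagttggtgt
Oas1a, chr5:120907526-120907645, minus strand: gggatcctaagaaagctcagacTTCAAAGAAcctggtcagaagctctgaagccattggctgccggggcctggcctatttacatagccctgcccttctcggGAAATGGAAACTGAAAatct
In this window Ifi209 and Ifih1 held none of the 3 motifs, which says only that these letters are not there. Gbp3, Ifit1 and Oas1a each held overlapping or repeated ISRE cores. Oas1a and Psmb8 held a GAS core, and Cmpk2 held 2 Runx motifs.

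The regulators of the response differed little between the treatments. Limma called none of 5, and 1 had an unadjusted p under 0.05, against 6.47% of all genes. Irf9, a DNA-binding partner of Stat2, read 7.64, 7.59, 7.63 and 7.59 in control arrays and 7.89, 7.80, 7.85 and 7.62 in labelled deleted arrays. It lay higher in each set, by 0.18 ± 0.07, and did not pass (limma adjusted p = 0.606). Irf1, a factor induced strongly by interferon gamma, gave 0.14 ± 0.07 (adjusted p = 0.902), also above 0 in 4 of 4 sets. These values are of the brighter of its 2 probe sets, and the mean of both gave a smaller difference, 0.08. Irf7, the factor that amplifies interferon alpha production, gave 0.09 ± 0.08. Stat2 gave 0.02 ± 0.07, and Usp18, a protease that removes Isg15 from proteins and restrains the receptor, gave -0.05 ± 0.08. The groups overlapped for Irf1, Irf7, Stat2, Usp18 and Irf9.

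Among the sensors of nucleic acid, Zbp1, Dhx58 and Ifih1 had the largest differences, of opposite sign. Limma called none of the 4 measured, and these 3 had an unadjusted p under 0.05, against 6.47% of all genes. Zbp1, a sensor of Z-form nucleic acid linked to cell death, read 7.03, 6.80, 6.37 and 6.39 in control arrays and 7.36, 6.91, 6.68 and 6.68 in labelled deleted arrays. Each set was higher, by 0.26 ± 0.08 in the fit (limma adjusted p = 0.259), and in control arrays clone 2 differed from clone 1 by -0.53 ± 0.16 (adjusted p = 0.116). Dhx58, a helicase that modulates the RNA sensors, read 7.83, 7.26, 7.03 and 7.35 in control arrays and 8.0, 7.45, 7.61 and 7.39 in labelled deleted arrays. Its set differences of 0.17, 0.19, 0.59 and 0.03 were all above 0 but uneven, and the fit gave 0.25 ± 0.09 (adjusted p = 0.489).

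Ifih1 encodes Mda5, a sensor of long double-stranded RNA. It read 8.95, 8.97, 8.30 and 8.23 in control arrays and 8.76, 8.61, 8.32 and 7.74 in labelled deleted arrays. The set differences were -0.19, -0.37, 0.02 and -0.49, so clone 2, replicate 1 did not share the sign of the others, and the fit gave -0.25 ± 0.08 (adjusted p = 0.261). Trim25, a ubiquitin ligase that activates Rig-I, showed 0.00 ± 0.05.

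The OAS genes encode enzymes that make the signal for RNase L, or relatives of them, and none of 5 was called by limma, at the adjusted or the unadjusted threshold. Their differences ran from -0.02 to 0.08. Oas2 had the highest, 0.08 ± 0.08, and was above 0 in 4 of 4 sets; it read 6.14, 6.17, 6.78 and 6.77 in control arrays and 6.22, 6.31, 6.81 and 6.86 in labelled deleted arrays. The larger step for Oas2 was the one between clones. Oasl2 gave 0.06 ± 0.08, and Oas1a, Oas3 and Oasl1 each gave -0.02.

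Several genes that commonly rise first and most in an interferon response showed little difference. Limma called none of the 13 effectors, and 2 had an unadjusted p under 0.05, against 6.47% of all genes. Ifit1, which binds foreign RNA caps, read 4.49, 4.39, 4.79 and 4.59 in control arrays and 4.65, 4.40, 4.62 and 4.73 in labelled deleted arrays, a difference of 0.03 ± 0.07. Mx1, an antiviral GTPase, read 4.08, 4.01, 4.21 and 4.06 in control arrays and 4.10, 4.20, 4.16 and 4.14 in labelled deleted arrays, a difference of 0.06 ± 0.06. Both genes overlapped fully between the treatments. Mx2, Ifit3, Rtp4, Xaf1 and Rsad2 gave 0.01, 0.05, 0.05, 0.01 and 0.00. The mean levels of Ifit1, Ifit3, Mx1, Mx2 and Rtp4 lay between percentiles 7.10 and 13.84 of all genes. Low signals cannot be told from background here. Bst2 (tetherin, which holds budding virus at the cell surface), Ifi35 and the chemokine Cxcl10 gave -0.06, -0.01 and 0.07.

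Ifit2, an RNA-binding relative of Ifit1, read 7.32, 7.10, 6.90 and 7.23 in control arrays and 7.87, 7.16, 7.11 and 7.22 in labelled deleted arrays. The first set gave 0.56 and the others 0.06, 0.21 and -0.01, so its value of 0.20 ± 0.09 (limma adjusted p = 0.78) came mostly from 1 array. Parp14, an ADP-ribosyltransferase, gave 0.18 ± 0.08 (adjusted p = 0.744) and was above 0 in each set.

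Cmpk2, a mitochondrial nucleotide kinase whose gene adjoins Rsad2, was the member with the lowest difference. It read 8.07, 8.02, 7.19 and 7.04 in control arrays and 7.75, 7.65, 7.01 and 6.74 in labelled deleted arrays. Every labelled deleted array lay below the control array of its set, by -0.32, -0.37, -0.17 and -0.30, and the clones did not overlap. The fit gave -0.29 ± 0.07 and did not pass (limma adjusted p = 0.117). It passed with array weights (adjusted p = 0.027), after quantile normalization (0.0359) and without clone 2, replicate 2 (0.0457), within a range of 0.027 to 1 over the alternatives. Rsad2 (viperin), the neighbour, read 6.01, 5.98, 5.86 and 5.91 in control arrays and 6.05, 5.83, 5.78 and 6.09 in labelled deleted arrays, a difference of 0.00 ± 0.08.

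The interferon-inducible GTPases act on membranes around intracellular pathogens. Gbp3 read 9.29, 9.44, 6.55 and 6.60 in control arrays and 9.54, 9.60, 6.79 and 6.96 in labelled deleted arrays. Within every set the labelled deleted array was higher, by 0.25, 0.16, 0.24 and 0.36, and the fit gave 0.25 ± 0.07 (limma adjusted p = 0.136). Irgm1 gave 0.07 ± 0.07, with overlapping groups.

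Gbp7, the neighbour of Gbp3 and not a member, was the only gene called among 113 other interferon-related genes counted here. Over all genes 0.953% were called, so 1 call in 113 is close to that share. It read 9.19, 9.25, 8.63 and 8.38 in control arrays and 9.51, 9.59, 8.85 and 8.57 in labelled deleted arrays. It was higher in each set, by 0.27 ± 0.05 in the fit, or 1.20-fold (limma adjusted p = 0.0397). The call was lost without clone 1, replicate 1 (adjusted p = 0.154), clone 1, replicate 2 (0.448) or clone 2, replicate 1 (0.137), without the set as a block (0.673 with clone alone) and after median centring (0.303). Its adjusted p ranged from 0.00265 to 1 over the alternatives. Gbp5, which lies on the other side of Gbp7, gave 0.15 ± 0.07 (adjusted p = 0.847), and Gbp2b gave -0.02.

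The antigen processing members are subunits of the immunoproteasome and its peptide transporter. Psmb8 read 8.94, 9.07, 9.42 and 9.62 in control arrays and 8.86, 9.14, 9.48 and 9.54 in labelled deleted arrays, a difference of -0.01 ± 0.05. Psmb9 and Tap1 gave -0.01 ± 0.07 and -0.02 ± 0.07. None of the 3 was called by limma, at the adjusted or the unadjusted threshold, and their values overlapped between the treatments.

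Several members differed between the clones, in a fit without the block on 2 arrays per clone and treatment. Among control arrays, 5 of 35 members (14.29%) were called between clone 2 and clone 1, against 3.97% of all genes, and 10 had an unadjusted p under 0.05, against 12.3% of all genes. Leaving out any 1 control array left 2 members called. Gbp3, Cmpk2 and Ifih1 were lower in clone 2, and Oas2 and Psmb8 were higher. The median size of the difference over the members was 0.18, against 0.10 over all genes. Among labelled deleted arrays the same 5 members were called along with Ifi203 and Psmb9, both higher in clone 2, so that 7 of 35 (20%) passed against 5.25% of all genes. The control and labelled deleted arrays come from the same 2 clones, so the second count is a repeat on other cultures of those clones. For 11 members (31.43%) the 4 arrays of one clone lay wholly above the 4 of the other, as did those of 19.7% of all genes.

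**Figure D3:**
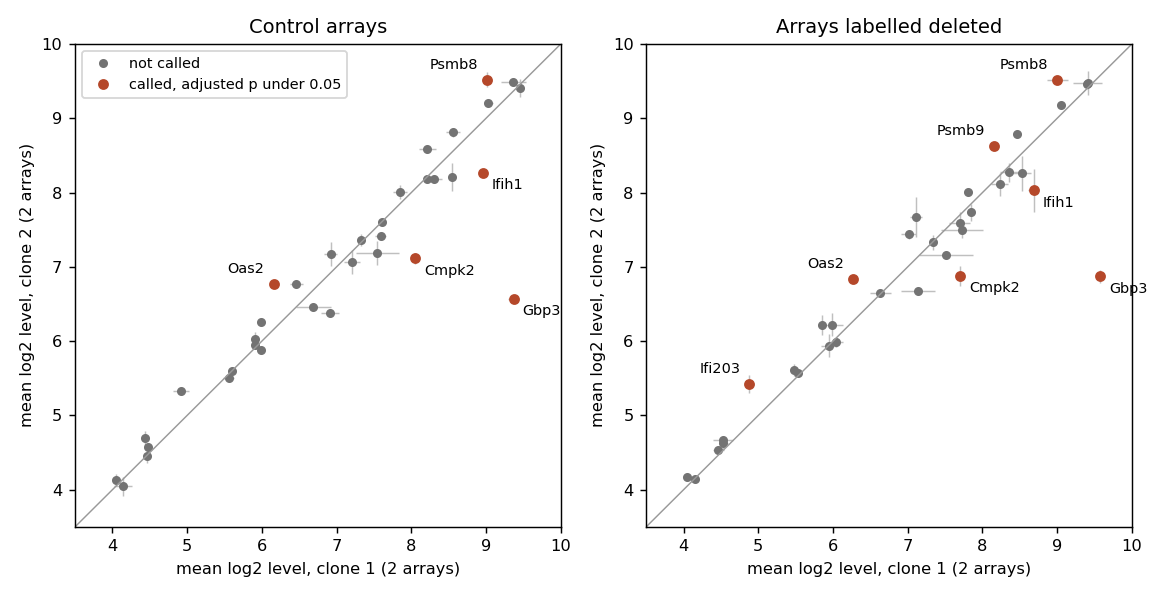
Mean log2 level of each of the 35 measured members in clone 1 (x axis) against clone 2 (y axis), in control arrays (left) and arrays labelled deleted (right). Grey bars run from the lower to the higher of 2 arrays, the line marks equal levels, and named points are the 5 and 7 members called between the clones.

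Gbp3 had the largest clone difference of the members. Control arrays of clone 2 were lower by -2.79 ± 0.11 (moderated SE, n = 2 arrays per clone), a 6.94-fold difference (limma adjusted p = 1.99e-07), and labelled deleted arrays differed by -2.70 ± 0.11 (adjusted p = 2.63e-07). No array of clone 2 came within 2 log2 units of any array of clone 1. Leaving out each control array in turn gave -2.87 to -2.72. Gbp7 differed the same way in control arrays, by -0.71 ± 0.12, or 1.64-fold (adjusted p = 0.00802).

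Cmpk2 was lower in clone 2 by -0.93 ± 0.13, or 1.91-fold (limma adjusted p = 0.00198), and Ifih1 by -0.70 ± 0.16 (adjusted p = 0.0406). Oas2 was higher in clone 2 by 0.62 ± 0.11, or 1.53-fold (adjusted p = 0.0103), and Psmb8 by 0.51 ± 0.12 (adjusted p = 0.0399). Psmb9, whose gene lies near Psmb8 beside Tap1, differed by 0.38 ± 0.11 in control arrays (adjusted p = 0.115) and by 0.47 ± 0.11 in labelled deleted arrays (adjusted p = 0.0338). The calls of Ifih1, Oas2 and Psmb8 were lost when any control array was left out, with adjusted p values of 0.161 to 0.252, 0.101 to 0.135 and 0.0805 to 0.356, and only Gbp3 and Cmpk2 then passed. Over all alternatives the adjusted p reached as low as 0.00184, 0.000792 and 0.00684 for these genes, with array weights. Cd34 differed between the same arrays by 5.48, and other progenitor, macrophage, dendritic cell, B cell and stroma markers were also called. The part of the clones' cell makeup in these differences was not tested.

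**Figure D4:**
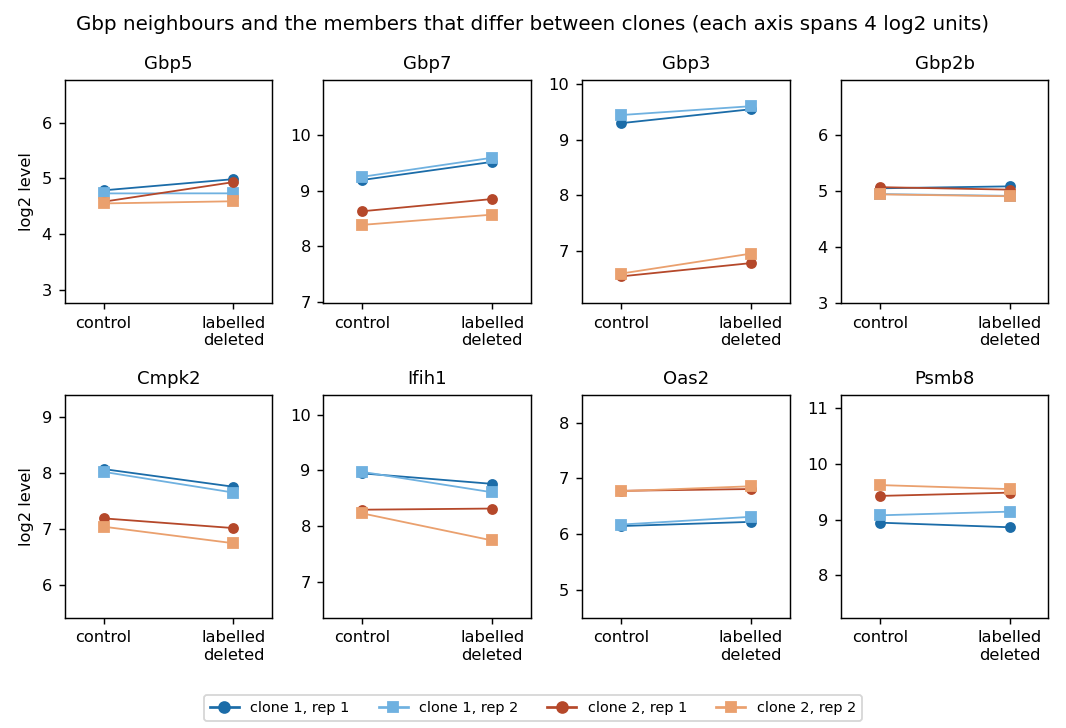
Log2 levels on control and labelled deleted arrays of Gbp3, its neighbours Gbp5, Gbp7 and Gbp2b, and the other members called between the clones in control arrays, with a line joining the arrays of each set. Gbp3 lies at 9.29 to 9.60 in clone 1 and at 6.55 to 6.96 in clone 2, while the lines of Gbp2b lie close together.

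Across the 35 members, the differences of any 2 sets correlated with r between 0.42 and 0.64. Over the 34 members other than Ifi209 the range was 0.09 to 0.45, and over all genes it was -0.23 to 0.45. Over all genes, r was 0.45 between the replicate 1 sets of the clones and 0.31 between their replicate 2 sets. It was 0.08 within clone 1, -0.13 within clone 2, and -0.23 and 0.14 in the remaining pairs. Differences thus ran together by replicate number, so the sets may not be independent, and the cause was not tested. The sets share no array, but sets of 1 clone share its cells. Genes are not independent replicates either, so these values are a description.

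Genes upstream and downstream of the members were counted whole. Between the treatments, 0.953% of all genes were called and 6.47% had an unadjusted p under 0.05. None of 15 interferon genes was called by limma and none had an unadjusted p under 0.05. Of these genes, 7 lay below the 25th percentile of level. The mean level of the 15 per array was 5.47 to 5.61 in control and 5.44 to 5.74 in labelled deleted arrays, so the ranges overlapped. Ifnz had the smallest p, with 0.13 ± 0.08 (adjusted p = 1), and Ifnb1 gave 0.04 ± 0.08. Interferon protein was not measured.

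Of 17 receptor and signalling genes, none was called and 1 had an unadjusted p under 0.05. This was Il10rb, a subunit shared by the receptors of interferon lambda and of interleukin 10, at 0.16 ± 0.04 (limma adjusted p = 0.0751). The interferon receptor chains Ifnar1 and Ifnar2 gave 0.09 ± 0.04 and 0.06 ± 0.03. Of 20 genes of nucleic acid sensing and interferon induction, none was called and 2 had an unadjusted p under 0.05; Irf5 had the smallest, at 0.31 ± 0.09 (adjusted p = 0.226). Of 12 further antigen processing genes none was called and 1, the chaperone Calr, had an unadjusted p under 0.05, at -0.12 ± 0.03 (adjusted p = 0.162).

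Of 42 other interferon-stimulated genes, Gbp7 was called and 8 had an unadjusted p under 0.05, against 6.47% of all genes. Their median difference was 0.06, and 31 of 42 lay above 0, where 9997 of all 19938 genes did. Between the clones, in control arrays, 7 of the 42 were called, against 3.97% of all genes. Ifi27, Parp12 and Epsti1 were higher in clone 2, and Slfn4, Sp100, Gbp7 and Lgals9 were lower. Slfn4, a Schlafen gene of myeloid cells, read 10.25 and 10.26 in control arrays of clone 1 and 7.45 and 6.87 in those of clone 2, a difference of -3.09 ± 0.21 (limma adjusted p = 8.02e-06). The clones also differed in Mavs, the adaptor of the RNA sensors (-1.17 ± 0.14, adjusted p = 0.000586), in Sting1, the adaptor of the DNA sensor cGAS (-0.58 ± 0.06, adjusted p = 0.000444), and in the kinase Tyk2 (-0.61 ± 0.11, adjusted p = 0.00814). All 3 were lower in clone 2, and the differences between treatments were -0.03, -0.08 and 0.03. Mavs and Sting1 were the 2 called between the clones of 20 sensing and induction genes. Tyk2 was the 1 called of 17 receptor and signalling genes.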

How the data were processed

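RNA from 8 cultures was hybridised to Affymetrix arrays. The deposited table holds log2 expression values of 35556 probe sets made with RMA, per the submitters' processing notes. No source used here gives the version or chip definition. Values of 2.60 to 13.77 fit a log2 scale. RMA normalizes between arrays by quantiles, so a true shift shared by all genes cannot be read from these values. Small differences between arrays remained, with array medians of 6.26 to 6.39. In clone 2, replicate 1, 42.48% of all genes lay above 0, against 50.88% to 53.89% in the other sets. The platform annotation gave 21789 probe sets 1 symbol and 1621 several, which were not used; 12146 were not listed. The probe set with the highest mean was kept for each of 19938 genes. Members and gene lists were chosen with earlier results of these data known.

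Fits used limma 3.58.1 in R 4.3.3, with a variance prior that follows expression level, two-sided tests, and p values adjusted over all genes by Benjamini-Hochberg, called under 0.05. The set was the block (3 residual degrees of freedom, 9.72 added by moderation), and each SE is moderated. Cultures were matched by the clone and replicate number in their titles, since the design text describes 4 sets. Within sets, arrays deviated together from their group means (r of 0.72 to 0.82), and each control array correlated best with its own partner in 4 of 4 sets. With clone means removed, r was 0.44 in clone 1 and 0.25 in clone 2. Clones were compared in a fit of clone by group without the block. Named genes were members that were called, had the smallest p, or were brightest or dimmest, and genes of the lists that were called, had the smallest p, or adjoin such a member; Ifnb1, Ifnar1, Ifnar2 and the remaining p200 genes were also named. The main fit was also run on simulated data with independent noise, paired sets and known shifts, which cannot check how the real cultures were matched. The replicates are labelled biological, and 4 sets limit the precision. Over all genes, differences of sets with the same replicate number ran together, so the sets may not be independent.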

Additional observations from a re-analysis of the deposited data

Results flagged for a closer look

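In 4 of 70 groups of 4 arrays, a member's highest array stood far from the other 3. Chance gives about 1 in 20 where all 4 values come from the same population. Each group holds 2 arrays of each clone, so that rate does not hold where the clones differ. Ifit2 read 7.87 in the labelled deleted array of clone 1, replicate 1, and 7.11 to 7.22 in the other labelled deleted arrays. Cxcl10 read 6.92 in the control array of clone 1, replicate 1, and 6.44 to 6.48 in the others. Irgm1 read 8.41 in that same control array and 8.17 to 8.20 in the others. Xaf1 read 5.63 in the control array of clone 1, replicate 2, and 5.48 to 5.50 in the others.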

How the results depend on the processing

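Over 41 results for single genes, 585 alternative values were computed, of which 508 kept their sign and side of the threshold. Without the replicate block, 0 genes were called with group alone, 23 with clone and 78 with clone and replicate number, against 190 with the block. Ifi209 was called under the block alternatives with a clone term and not with group alone (0 members higher), and the other interferon-related genes called went from 1 to 0 in all 3. In clone 2, 0 members were called without the block. A constant prior variance called 13 genes, 0 members over the 4 sets, 0 in clone 2, 3 between the clones and 0 other interferon-related genes. Testing all probe sets called 0 genes, 0 members over the 4 sets, 0 in clone 2, 3 between the clones and 0 other genes. Array weights called 388 genes, 1 member lower (Cmpk2), 1 in clone 1, 8 between the clones and 5 other genes. Quantile normalization called 1 member lower and 4 other genes. Median centring called 1 member in clone 1, 3 between the clones and 0 other genes. Leaving out each set or array in turn gave 98 to 418 genes (98 without clone 1, replicate 2; 110 without clone 2, replicate 1; 418 without clone 2, replicate 2), 0 to 1 members lower, 0 to 1 in clone 1, 1 to 2 in clone 2, 2 between the clones and 0 to 6 other genes. The cause of these shifts was not tested. Some settings fitted fewer arrays or ran more tests, and how far either accounts for a shift was not tested.

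Signs turned for 16 results, none of them called. With array weights the differences were -0.012 for Stat2, 0.005 for Oas1a, 0 to 3 decimals for Oasl1, -0.007 for Ifit3, -0.061 for Mx2, -0.055 for Rsad2, -0.054 for Xaf1, 0.020 for Psmb8, 0.010 for Psmb9, 0.032 for Tap1 and -0.014 for Ifi203. After quantile normalization they were -0.001 for Mx2, -0.019 for Rsad2 and -0.003 for Xaf1. After median centring they were -0.002 for Stat2, -0.010 for Mx2, -0.021 for Rsad2, -0.010 for Xaf1 and -0.007 for Aim2. Leaving out each set in turn gave -0.012 to 0.075 for Stat2, -0.038 to 0.029 for Trim25, -0.066 to 0.013 for Oas1a, -0.082 to 0.060 for Oas3, -0.010 to 0.103 for Ifit1, -0.015 to 0.088 for Ifit3, -0.069 to 0.084 for Mx2, -0.058 to 0.052 for Rsad2, -0.048 to 0.084 for Xaf1, -0.028 to 0.004 for Ifi35, -0.032 to 0.017 for Psmb8, -0.033 to 0.047 for Psmb9, -0.064 to 0.046 for Tap1, -0.028 to 0.106 for Ifi203 and -0.023 to 0.070 for Aim2. No detection calls were used, so low signals cannot be told from background here.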
